A study of Mus musculus with 12 samples.

Results

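The lipid uptake, storage and efflux genes described here are 10 genes out of the 55487 in each table of counts. They were chosen by symbol, and each symbol was matched to 1 Ensembl identifier in the GRCm38 annotation. By role they are Lpl and Cd36 (uptake), Fabp4 and Fabp5 (fatty acid binding inside the cell), Plin2 (storage), Pparg and Nr1h3 (nuclear receptors), and Abca1, Abcg1 and Apoe (efflux). All 10 passed the filter on low counts in both experiments, and the smallest count of any of them in any library was 74.

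RNA-seq was measured in 12 libraries of mouse cells, in a study of how macrophages act on mesenchymal stem cells (MSCs) in osteoporosis. In the first experiment, bone marrow-derived macrophages (BMMs) came from C57BL/6 mice whose ovaries had been removed to end their estrogen supply (OVX) or that had a sham operation, with 3 libraries each. In the second, C57BL/6 MSCs were cultured alone (MSC), with untreated RAW cells (MSC+RAW), or with RAW cells stimulated with lipopolysaccharide (LPS), a bacterial cell wall component (MSC+RAW-LPS), with 2 libraries each. RAW cells are the RAW264.7 mouse macrophage line, which was derived from a male mouse. The labels give limbs as the tissue and 8 weeks as the age for every sample, and no genotype. According to the methods, BMMs were grown from leg bone marrow with macrophage colony-stimulating factor, and MSCs were the adherent marrow cells at passage 3, purified by passage. Neither the labels nor the methods say which libraries came from separate mice or cultures, so the p-values below measure only the spread between these libraries, which may be technical.

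Macrophages and fat-storing cells take up fatty acids that lipoprotein lipase releases from lipoproteins, carry them inside the cell on fatty acid-binding proteins, and store them as droplets coated by perilipins. Excess cholesterol leaves the cell through ATP-binding cassette transporters onto apolipoproteins. The nuclear receptor PPARγ, encoded by Pparg, drives many of the uptake and storage genes, and LXRα, encoded by Nr1h3, drives many of the efflux genes when oxysterols bind it, both as partners of the retinoid X receptor.

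The members lie on 8 chromosomes of GRCm38. Lpl lies at chr8:68880491-68907448 on the plus strand, and Cd36 at chr5:17781690-17888801 on the minus strand. Fabp5 at chr3:10012548-10016607 (plus) and Fabp4 at chr3:10204088-10208576 (minus) share a chromosome, as do Abca1 at chr4:53030787-53159895 (minus) and Plin2 at chr4:86648386-86670060 (minus). Pparg lies at chr6:115360951-115490399 (plus), Nr1h3 at chr2:91184061-91202834 (minus), Abcg1 at chr17:31057675-31117988 (plus) and Apoe at chr7:19696109-19699188 (minus). Pparg overlaps the antisense gene Gm44079, Nr1h3 overlaps Gm13783 on its own strand and Gm23390 on the other, and Abcg1 overlaps Gm25447. The strand setting of the counting is not given in the sources used here, so reads of these partners and of the members cannot be told apart. Fabp5 also has a processed pseudogene, Fabp5l2, with which it can share reads.

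Promoter sequences of 6 members were found in the RefSeq table of GRCm38.p6, with 11 start sites in all. Lpl, Fabp4, Fabp5 and Abcg1 had no entry. Each promoter was searched on both strands, from 250 bases before to 50 bases after the start, for the nuclear receptor half-site AGGTCA, for direct repeats of it with a gap of 1 base (the kind bound by PPAR with its partner) or 4 bases (the kind bound by LXR with its partner), with at most 1 mismatch in each half-site, and for TATAAA. Of 32851 mouse promoters of the same length, 16.3% held the half-site, 2.40% the repeat with a gap of 1, 1.75% the repeat with a gap of 4, and 13.6% TATAAA. The 250 bases before the start are shown for an uptake, a storage and an efflux gene, 5′ to 3′ on the strand of the gene, with every match in capitals.
Cd36, chr5:17835897-17836146, minus strand: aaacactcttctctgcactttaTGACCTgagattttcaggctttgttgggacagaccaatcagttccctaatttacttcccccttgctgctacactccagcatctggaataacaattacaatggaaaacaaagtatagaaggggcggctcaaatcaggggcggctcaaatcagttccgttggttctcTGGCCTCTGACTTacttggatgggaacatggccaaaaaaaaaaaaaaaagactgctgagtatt
Plin2, chr4:86670060-86670309, minus strand: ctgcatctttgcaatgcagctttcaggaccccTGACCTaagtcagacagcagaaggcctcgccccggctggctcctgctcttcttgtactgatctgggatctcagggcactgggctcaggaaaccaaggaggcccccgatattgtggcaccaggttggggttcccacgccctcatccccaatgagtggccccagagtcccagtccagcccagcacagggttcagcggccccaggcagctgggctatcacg
Abca1, chr4:53159896-53160145, minus strand: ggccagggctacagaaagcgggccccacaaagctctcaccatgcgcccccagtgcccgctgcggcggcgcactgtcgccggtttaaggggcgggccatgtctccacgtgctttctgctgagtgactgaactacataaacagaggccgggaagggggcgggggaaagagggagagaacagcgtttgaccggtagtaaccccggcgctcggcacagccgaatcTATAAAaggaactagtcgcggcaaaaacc
Cd36 held the half-site on the other strand at −228 to −223 and a repeat with a gap of 1 on the other strand at −63 to −51, read here as TGGCCTCTGACTT. Plin2 held the half-site on the other strand at −218 to −213. Abca1 held TATAAA at −29 to −24 and neither kind of repeat with at most 1 mismatch in each half-site. The half-site also stood before 2 of the 3 Pparg starts, at −28 to −23 and at −9 to −4, and TATAAA stood before 1 Pparg start and 1 Apoe start. None of the 11 windows held the repeat with a gap of 4 at that mismatch limit. Repeats with more mismatches were not searched for, so such repeats may be present. These matches describe the letters only, and binding was not measured.

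Total counts ran from 17012923 to 45367105 per library. The counts of sham replicates 2 and 3 and of the 2 MSC+RAW libraries were nearly identical. In highly counted genes, the chi-square between such libraries exceeded that of pure sampling 2.78 and 3.35 times, where every other pair within a group gave between 23.3 and 150. Each of these pairs was counted as 1 sample, so the fits held 3 OVX and 2 sham samples, and 2 MSC, 1 MSC+RAW and 2 MSC+RAW-LPS samples. The lone MSC+RAW sample was assumed to vary like the other MSC groups. Sham replicate 1 differed from the other sham libraries by 127 and 150 on the same measure. Across genes, the deviation of a library from the mean of its experiment went with the GC content of the gene. Spearman's rho was between −0.67 and −0.36 in OVX and between 0.23 and 0.59 in sham, and it was 0.47 in both MSC+RAW libraries and between −0.38 and −0.20 in the other MSC libraries. For this reason, values without the trends that genes showed with their GC content and exon length are given below for the members whose call, direction or side of the p limit they change.

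Marker lists were compared with the labels. All 12 macrophage markers were above 1 CPM, a count in 1000000 counts of the library, in all 12 libraries. Their summed level was 58001 to 61876 CPM in sham, 42602 to 47015 in OVX, 27374 to 27523 in MSC, 36169 to 36698 in MSC+RAW and 13098 to 14226 in MSC+RAW-LPS. The libraries labelled MSC, which had no RAW cells by their label, thus held Lyz2, a lysozyme of macrophages and neutrophils, at 21659 CPM and Csf1r, the receptor for macrophage colony-stimulating factor, at 1111 CPM. The 12 mesenchymal stromal markers summed to 2669 to 2815 CPM in MSC, 2043 to 2055 in MSC+RAW and 4061 to 4102 in MSC+RAW-LPS, below the 7250 to 8307 CPM of the BMM libraries. In both MSC libraries 10 of these 12 genes were above 1 CPM, led by the collagen genes Col1a2 at 903, Col3a1 at 704 and Col1a1 at 457 CPM, while Thy1 was at 0.37 CPM. All 4 Y-linked genes were above 1 CPM in every MSC library and below 1 CPM in every BMM library. Their sum was 108 to 125 CPM in MSC, 63.4 to 66.6 CPM in MSC+RAW and 98.7 to 105 CPM in MSC+RAW-LPS. The methods name the C57BL/6 mice as female, so Y-linked counts in libraries labelled MSC go against that source. In these bulk samples, fewer cells of a type and less RNA per cell cannot be told apart.

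**Figure D1:**
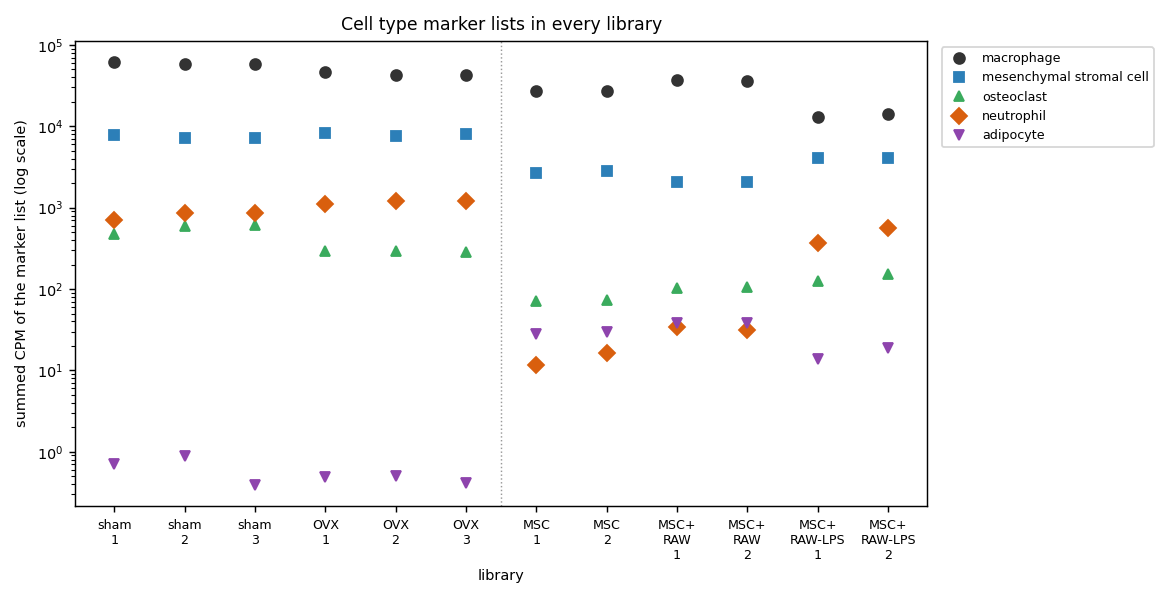
Summed CPM of 5 marker lists (vertical axis, log scale) in each of the 12 libraries (horizontal axis, grouped by condition), with 1 point per list and library. The dotted line parts the experiments, which were normalized separately. The macrophage list is the highest in every library, the MSC cultures included, and falls from 27374 to 27523 CPM in MSC to 13098 to 14226 CPM in MSC+RAW-LPS.

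The adipocyte list summed to 0.4 to 0.9 CPM in the BMM libraries, where none of its 8 genes reached 1 CPM. In the MSC experiment it summed to 27.8 to 29.2 CPM in MSC, 37.9 to 38.6 in MSC+RAW and 13.9 to 19.0 in MSC+RAW-LPS. Adipoq, which encodes the fat cell hormone adiponectin, made up 14.3 CPM of this in MSC, and Lep, which encodes leptin, was at 0 in all 5 groups. Osteoclast and neutrophil markers were also measured. The osteoclast list summed to 471 to 612 CPM in sham and 285 to 294 in OVX. Most of that sum was Acp5 (385 CPM in sham and 167 in OVX), whereas Atp6v0d2 (13.9 and 25.1 CPM) stood the other way. The neutrophil list summed to 713 to 861 CPM in sham and 1098 to 1204 in OVX. Most of the neutrophil sum was S100a8 (327 CPM in sham and 472 in OVX) and S100a9 (393 and 631 CPM), whereas Elane (9.51 and 6.36 CPM) and Mpo (11.2 and 5.76 CPM) stood the other way. In MSC+RAW-LPS the neutrophil list reached 370 to 557 CPM, nearly all of it S100a8 at 429 CPM, against 11.7 to 16.4 CPM in MSC.

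Levels were compared between genes per length, in CPM per kilobase of exon. Apoe, the apolipoprotein that carries lipid out of macrophages, stood first in all 5 groups. Its level was 6414 ± 1635 CPM per kilobase in OVX (SD, n = 3), 7307 ± 3622 in sham (n = 2), 1219 ± 13.9 in MSC (n = 2), 3204 in MSC+RAW (n = 1) and 534 ± 196 in MSC+RAW-LPS (n = 2). Pparg stood last in OVX, sham and MSC+RAW-LPS. It had 2.18 ± 0.48 CPM per kilobase in OVX and 2.61 ± 1.63 in sham.

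In OVX, Fabp5 at 92.0 ± 16.7 CPM per kilobase, Cd36 at 82.4 ± 11.8, Lpl at 56.2 ± 11.3 and Plin2 at 56.1 ± 2.2 followed Apoe. Of these neighbors, Fabp5 and Cd36 lay within 1 SD of each other, and so did Lpl and Plin2. In MSC, Plin2, the perilipin that coats small droplets, came second with 221 ± 0.6 CPM per kilobase. Cd36, the fatty acid and oxidized lipoprotein receptor, had 150 ± 21.3 and Lpl, the secreted lipoprotein lipase, 80.1 ± 5.8. At the low end in MSC, Abca1 (8.22 ± 0.42), Abcg1 (7.22 ± 0.04), Pparg (6.28 ± 0.13) and Nr1h3 (6.05 ± 0.34 CPM per kilobase) lay close together, and only Pparg and Nr1h3 overlapped within 1 SD. The tables were normalized separately, so levels in BMMs and in MSC cultures are set side by side without a test.

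**Figure D2:**
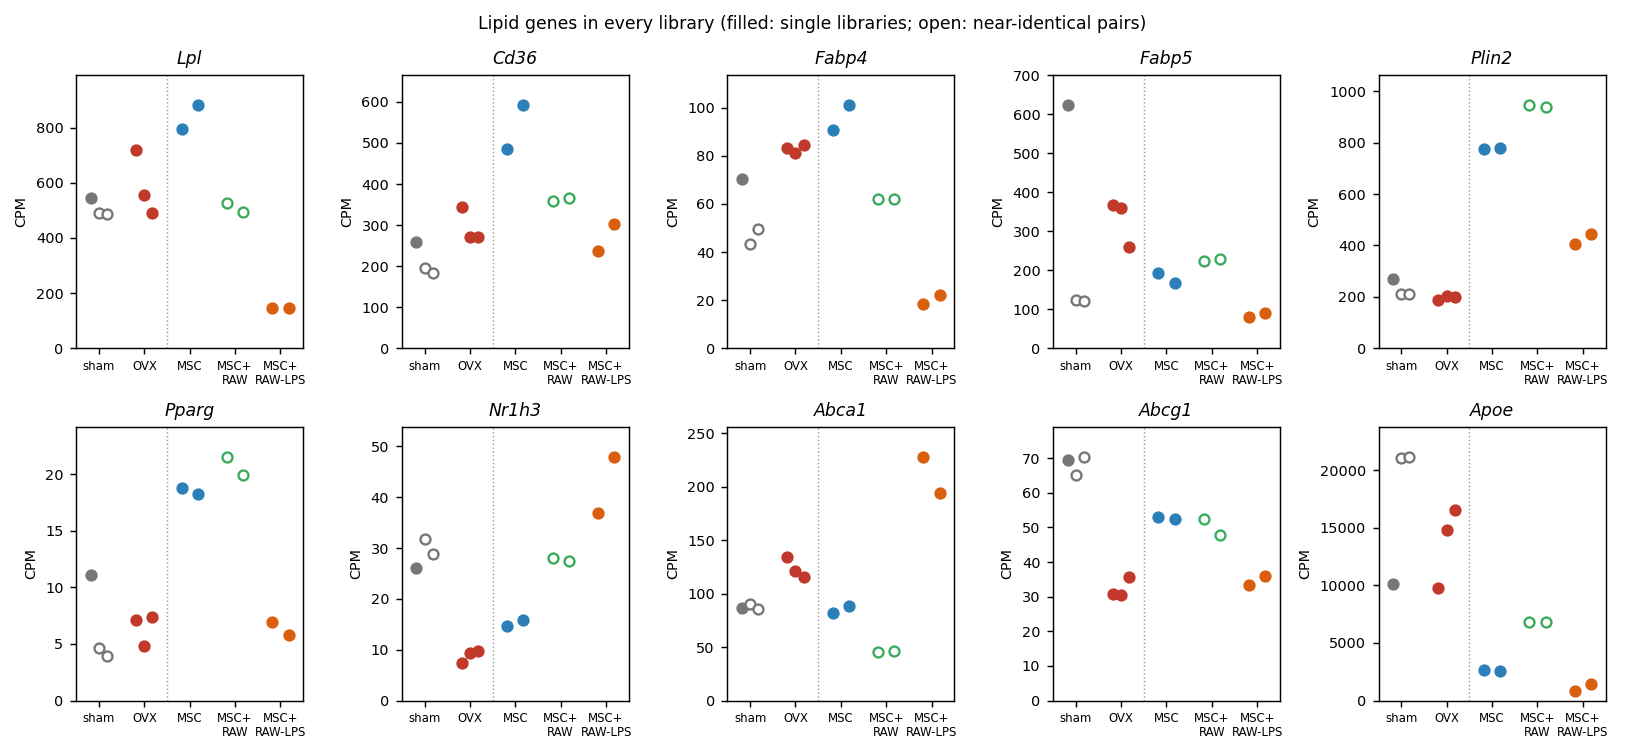
CPM of each of the 10 genes (vertical axes, each from 0) in every library of the 5 groups (horizontal axes), with 1 point per library. Open points are the near-identical pairs, each counted as 1 sample, and the dotted line parts the experiments. Nr1h3 and Abcg1 are lower in all OVX than in all sham libraries, and all members but Nr1h3 and Abca1 are lowest in MSC+RAW-LPS among the MSC cultures.

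The comparison of OVX with sham asked how BMMs change in a mouse model of osteoporosis after the loss of estrogen. Nr1h3 and Abcg1 fell in OVX, and none of the 10 genes rose. A gene was called when it changed at least 2-fold with an adjusted p of at most 0.05 in edgeR's quasi-likelihood test. Of 16768 genes tested, 5.39% were called higher and 3.08% lower in OVX, beside 0 higher and 2 lower among the 10 members. The median log2 fold change was −0.20 for the members and −0.01 for all genes. In 6 of the 10 members the OVX and sham libraries did not overlap, as in 42.9% of all genes tested.

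Nr1h3, which encodes the oxysterol-sensing receptor LXRα, had 7.44, 9.34 and 9.72 CPM in OVX replicates 1 to 3 and 26.2, 31.8 and 28.8 CPM in sham replicates 1 to 3. Every OVX library was below every sham library. The log2 fold change was −1.68 ± 0.21 (SE), or 3.20-fold lower, with an adjusted p of 0.00545. Abcg1, a transporter that loads cholesterol onto high-density lipoprotein, had 30.9, 30.4 and 35.8 CPM in OVX and 69.4, 65.2 and 70.3 CPM in sham. These groups did not overlap either. The log2 fold change of Abcg1 was −1.10 ± 0.17, or 2.14-fold lower, with an adjusted p of 0.00885. The column names carry library numbers of 2 series. In the series with 1 library a group, Nr1h3 had 9.34 CPM in OVX replicate 2 and 31.8 in sham replicate 2, and Abcg1 had 30.4 and 65.2 CPM. Sham replicate 2 is near-identical to sham replicate 3 of the other series, so the series do not give independent sham values.

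With these trends removed, the log2 fold change was −1.27 for Nr1h3 (adjusted p = 0.00603) and −0.88 for Abcg1 (adjusted p = 0.0140), so that Abcg1 no longer reached 2-fold. Without OVX replicate 2, Abcg1 had an adjusted p of 0.0676. The summed macrophage markers were also lower in all OVX than in all sham libraries. Most of the sum was Lyz2, at 37736 CPM in OVX and 49982 in sham. Adgre1 (926 and 2097 CPM), Fcgr1 (142 and 306 CPM) and Laptm5 (327 and 594 CPM) were among the other markers that were lower. Only Cx3cr1 (233 and 90.7 CPM), Ptprc (124 and 79.6 CPM) and Cd68 (376 and 358 CPM) were higher. The osteoclast list was lower as well, at the levels given above. The part of these markers in the changes of Nr1h3 and Abcg1 was not tested.

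Abca1, which exports cholesterol and phospholipid to apolipoprotein A-I, stood the other way from Abcg1. It had 134, 121 and 115 CPM in OVX and 86.3, 90.7 and 85.7 CPM in sham, with no overlap. Its log2 fold change of 0.49 ± 0.17 did not pass the test (adjusted p = 0.101). At nearly the same fold, its adjusted p was 0.0446 with DESeq2, 0.0229 with libraries kept apart and 0.0091 with the replicate number as a block, so its side of the p limit turns on the setting. Apoe had 9801, 14807 and 16531 CPM in OVX and 10148, 21059 and 21139 CPM in sham. Replicate 1 of both groups was low, and the groups overlapped (log2 fold change −0.20 ± 0.33, adjusted p = 0.727).

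Lpl had 720, 557 and 490 CPM in OVX and 544, 491 and 486 CPM in sham, and its groups overlapped (log2 fold change 0.18 ± 0.21, adjusted p = 0.616). Cd36 had 345, 272 and 271 CPM in OVX and 258, 195 and 183 CPM in sham. All OVX libraries were above all sham libraries, but sham replicate 1 lay close to the OVX range, and the log2 fold change of 0.40 ± 0.22 had an adjusted p of 0.256. Fabp4, a fatty acid-binding protein of fat cells and macrophages, had 83.2, 81.3 and 84.3 CPM in OVX and 70.3, 43.1 and 49.8 CPM in sham. Its log2 fold change was 0.49 ± 0.21 (adjusted p = 0.164).

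Plin2 had 188, 203 and 199 CPM in OVX and 270, 213 and 211 CPM in sham, with a log2 fold change of −0.30 ± 0.18 (adjusted p = 0.306). Its groups did not overlap, although sham replicates 2 and 3 lay close above the highest OVX library. Pparg had 7.13, 4.81 and 7.38 CPM in OVX and 11.1, 4.69 and 3.93 CPM in sham. Here the sham libraries spanned the OVX libraries (log2 fold change −0.27 ± 0.40, adjusted p = 0.699).

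Fabp5, the fatty acid-binding protein first found in skin, had 366, 359 and 260 CPM in OVX. In sham replicate 1 it had 623 CPM, and in sham replicates 2 and 3, the near-identical pair, 123 and 122 CPM. The sham samples thus stood on both sides of OVX, and the log2 fold change was −0.19 ± 0.54 (adjusted p = 0.844). Without sham replicate 1 it was 1.42 (adjusted p = 0.00572), which would be called higher. Pparg turned from −0.27 to 0.59 without the same library. Sham replicate 1 held 11.1 CPM of Pparg and 10148 CPM of Apoe, so that for 3 members it was far from the other sham libraries, and the number of genes called over the whole table rose from 1419 to 2390 without it.

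Of the 8 members not called, 4 changed sign when the GC and length trends were removed. Lpl went from 0.18 to −0.35, Cd36 from 0.40 to −0.45, Fabp4 from 0.49 to −0.01 and Apoe from −0.20 to 0.28. Fabp5, Plin2, Pparg and Abca1 kept their sign, at −0.17, −0.09, −0.16 and 0.32. Cd36, Fabp4 and Lpl are the members of lowest GC content (38.4%, 42.7% and 43.5% of exon bases) and Apoe is the highest (59.5%). Over all genes, the share of calls that were higher in OVX went from 63.6% to 37.3%. No direction is read from the 4 genes that changed sign.

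In the MSC experiment the study asked how co-culture with macrophages changes the transcriptome of MSCs. Lpl, Fabp4, Fabp5, Pparg and Apoe fell, and Abca1 and Nr1h3 rose, in MSC+RAW-LPS against MSC. Of 20499 genes tested, 5.85% were called higher and 5.09% lower, beside 2 higher and 5 lower among the 10 members. The median log2 fold change was −1.04 for the members and −0.01 for all genes. The libraries of the 2 groups were free of overlap in all 10 members, and in 57.7% of all genes tested.

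In MSC+RAW-LPS against MSC+RAW, Lpl, Fabp4, Fabp5, Plin2, Pparg and Apoe fell and Abca1 rose. Here 15.4% of all genes were called higher and 12% lower, beside 1 higher and 6 lower among the members. The members' median was −1.31, where the median of all genes was 0.14. In MSC+RAW against MSC, Apoe rose and no member was called lower. Of all genes, 6.8% were called higher and 9.59% lower, with a median of −0.13, and the median of the members was 0.08. The comparisons share their groups, so they are not independent of one another.

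**Figure D3:**
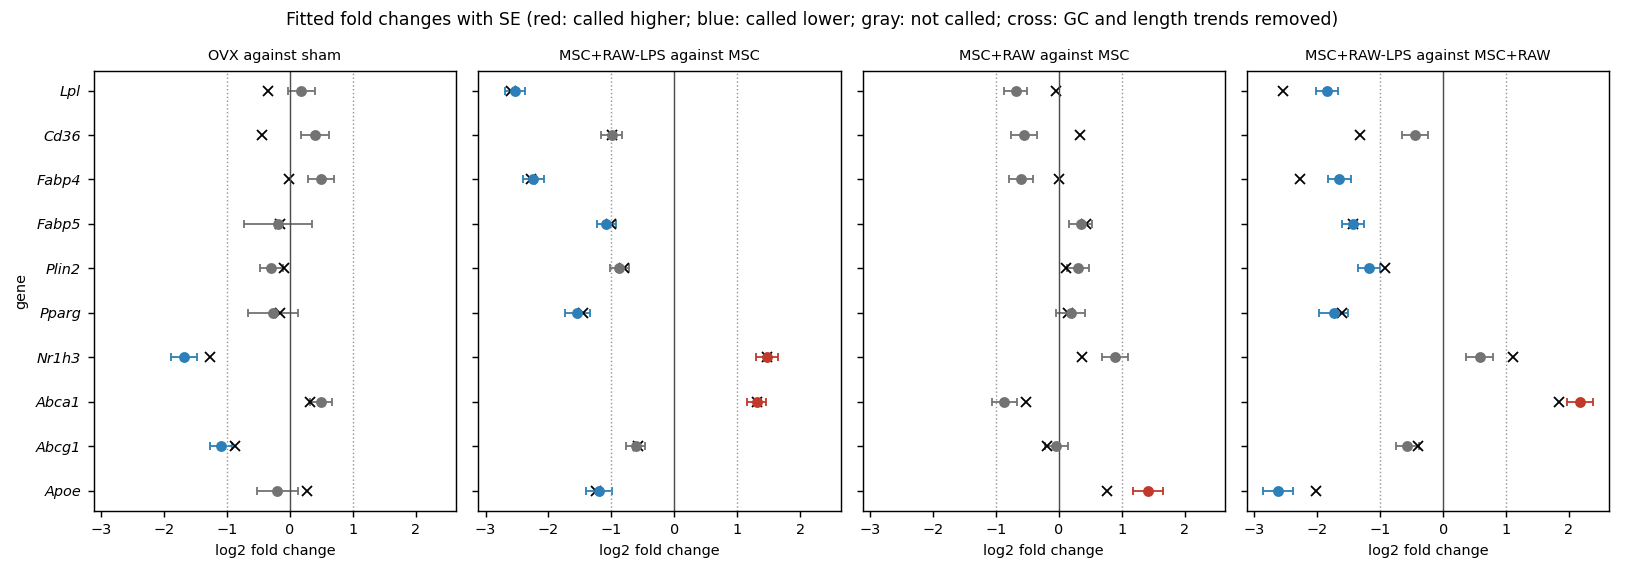
Log2 fold change (horizontal axes) of each of the 10 genes (vertical axis) in the 4 comparisons, as points with SE bars from the edgeR fit. Dotted lines mark a 2-fold change, red and blue points are called higher and lower, gray points are not called, and crosses give the value with the GC and length trends removed. Points and crosses nearly coincide for MSC+RAW-LPS against MSC and part for the comparisons that involve MSC+RAW or OVX and sham.

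Lpl had 796 and 882 CPM in the MSC libraries, 526 and 495 in MSC+RAW, and 145 and 146 CPM in MSC+RAW-LPS. The groups did not overlap. The log2 fold change of Lpl was −2.53 ± 0.16 against MSC (5.78-fold lower, adjusted p = 9.64e-09) and −1.85 ± 0.18 against MSC+RAW (adjusted p = 1.32e-06). In MSC+RAW against MSC it was −0.68 ± 0.19, which passed the p limit (0.0135) but not the fold limit. With the trends removed it was −0.05 (adjusted p = 0.858), so no order of MSC and MSC+RAW is read for Lpl. Cd36 had 484 and 593 CPM in MSC, 358 and 365 in MSC+RAW, and 238 and 304 CPM in MSC+RAW-LPS. Its groups did not overlap either.

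Against MSC, Cd36 stood just inside the fold limit in MSC+RAW-LPS, with a log2 fold change of −0.995 ± 0.17 and an adjusted p of 0.000438. With RLE normalization, with no filter on low counts and with DESeq2 it was past that limit, so its call turns on the setting. Against MSC+RAW the log2 fold change was −0.45 ± 0.20 (adjusted p = 0.0915), and −1.32 with the trends removed (adjusted p = 0.000288). In MSC+RAW against MSC, Cd36 went from −0.55 to 0.33 when the trends were removed.

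Fabp4 had 90.5 and 101 CPM in MSC, 62.2 and 62.1 in MSC+RAW, and 18.6 and 22.0 CPM in MSC+RAW-LPS. Between MSC+RAW and MSC its log2 fold change was −0.60 (adjusted p = 0.0326), and −0.0014 with the trends removed (adjusted p = 1). Fabp4 had a log2 fold change of −2.24 ± 0.17 against MSC (4.73-fold lower, adjusted p = 6.47e-08) and −1.65 ± 0.19 against MSC+RAW (adjusted p = 7.12e-06). Fabp5 had 192 and 168 CPM in MSC, 224 and 227 in MSC+RAW, and 79.9 and 91.0 CPM in MSC+RAW-LPS. Its log2 fold change of 0.35 ± 0.18 in MSC+RAW against MSC did not pass the test (adjusted p = 0.160). Fabp5 fell by 1.08 on the log2 scale against MSC (SE 0.15, adjusted p = 7.89e-05) and by 1.43 against MSC+RAW (SE 0.18, adjusted p = 1.84e-05). Without MSC replicate 1 its change against MSC was −0.98, under 2-fold.

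Plin2 had 775 and 778 CPM in MSC, 947 and 938 in MSC+RAW, and 406 and 444 CPM in MSC+RAW-LPS. It was lowest in MSC+RAW-LPS. Plin2 had a log2 fold change of −1.18 ± 0.18 against MSC+RAW (adjusted p = 8.81e-05) and −0.87 ± 0.15 against MSC (adjusted p = 0.000468), which was under the fold limit. With the trends removed the change against MSC+RAW was −0.92, also under it. In MSC+RAW against MSC, Plin2 had a log2 fold change of 0.31 ± 0.18 that did not pass the test (adjusted p = 0.207).

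The nuclear receptors moved in opposite directions in MSC+RAW-LPS. Pparg had 18.8 and 18.3 CPM in MSC, 21.5 and 19.9 in MSC+RAW, and 6.96 and 5.77 CPM in MSC+RAW-LPS. Its log2 fold change was −1.54 ± 0.20 against MSC (2.91-fold lower, adjusted p = 3.46e-05) and −1.73 ± 0.23 against MSC+RAW (adjusted p = 3.18e-05). Between MSC+RAW and MSC it was 0.19 ± 0.23 (adjusted p = 0.559).

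Nr1h3 had 14.6 and 15.8 CPM in MSC, 28.0 and 27.5 in MSC+RAW, and 36.8 and 47.9 CPM in MSC+RAW-LPS. The 3 groups did not overlap. Its log2 fold change against MSC was 1.47 ± 0.18 in MSC+RAW-LPS (2.78-fold higher, adjusted p = 1.68e-05) and 0.89 ± 0.21 in MSC+RAW (adjusted p = 0.00544, under the fold limit). With the trends removed, the value in MSC+RAW was 0.37 (adjusted p = 0.176). Between MSC+RAW-LPS and MSC+RAW it was 0.58 ± 0.22 (adjusted p = 0.0448), and 1.10 with the trends removed (adjusted p = 0.000918).

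The 3 efflux genes had 3 different patterns. Abca1 had 82.1 and 88.3 CPM in MSC, 45.8 and 45.9 in MSC+RAW, and 228 and 194 CPM in MSC+RAW-LPS. It was lowest with untreated RAW cells and highest with LPS-stimulated ones. The log2 fold change of Abca1 in MSC+RAW-LPS was 1.31 ± 0.15 against MSC (2.47-fold higher, adjusted p = 1.22e-05) and 2.17 ± 0.21 against MSC+RAW (4.50-fold higher, adjusted p = 1.40e-06). In MSC+RAW against MSC it was −0.86 ± 0.19 (adjusted p = 0.00415), under the fold limit.

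Apoe stood opposite to Abca1. It had 2628 and 2586 CPM in MSC, 6849 and 6852 in MSC+RAW, and 845 and 1438 CPM in MSC+RAW-LPS. Its log2 fold change was 1.42 ± 0.24 in MSC+RAW against MSC (2.68-fold higher, adjusted p = 0.000731), −1.19 ± 0.20 in MSC+RAW-LPS against MSC (adjusted p = 0.000468) and −2.62 ± 0.24 in MSC+RAW-LPS against MSC+RAW (6.13-fold lower, adjusted p = 8.71e-07). The rise in MSC+RAW was 0.77 with the trends removed (adjusted p = 0.0238), which was under 2-fold. The macrophage list was also higher in MSC+RAW than in MSC and the stromal list lower, at the levels given above, with C1qb at 3521 against 1223 CPM but Adgre1 at 335 against 548 CPM, and their part in the rise of Apoe was not tested. Without MSC+RAW-LPS replicate 1, the fall against MSC was −0.89.

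Abcg1 had 52.9 and 52.5 CPM in MSC, 52.5 and 47.7 in MSC+RAW, and 33.2 and 35.9 CPM in MSC+RAW-LPS. It was not called in any of the 3 comparisons. The log2 fold change of Abcg1 in MSC+RAW-LPS was −0.61 ± 0.15 against MSC (adjusted p = 0.00858) and −0.57 ± 0.18 against MSC+RAW (adjusted p = 0.0201), and in MSC+RAW against MSC it was −0.04 ± 0.18 (adjusted p = 0.897). The value against MSC+RAW was −0.40 with the trends removed (adjusted p = 0.0813). The 2 cholesterol transporters, Abca1 and Abcg1, stood on opposite sides of 0 in MSC+RAW-LPS against MSC and in OVX against sham.

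Other markers moved with the members in MSC+RAW-LPS. The macrophage and adipocyte lists were lower there than in MSC, while the stromal and neutrophil lists were higher, at the levels given above. Most of the neutrophil rise was S100a8, with S100a9 at 0.03 CPM in MSC+RAW-LPS. Cxcl12 on the stromal list, named after its values were seen, was lower, at 195 CPM against 341 in MSC. The osteoclast list was higher as well, at 127 to 152 CPM against 70.3 to 72.7 in MSC and 103 to 105 in MSC+RAW. Its rise was in Acp5, at 23.0 CPM in MSC and 110 in MSC+RAW-LPS. Ctsk (30.7 and 26.0 CPM) and Atp6v0d2 (17.3 and 3.03 CPM) were lower, all named after their values were seen. Within the macrophage list the genes did not all move one way, as 2 genes chosen after their values were seen show. Cd68, a lysosomal protein of macrophages, was at 565 CPM in MSC and 80.1 in MSC+RAW-LPS, and Adgre1, which encodes F4/80, was at 548 and 1471 CPM. The part of these cell types in the changes of the 10 genes was not tested.

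A further 69 genes in 5 lists were taken for the same pathways. In OVX against sham, 59 of them passed the filter on low counts, and 0 were called higher and 4 lower, beside 5.39% and 3.08% of all genes. Angptl4, which encodes an inhibitor of lipoprotein lipase, had a log2 fold change of −1.02 ± 0.25 (adjusted p = 0.0334). Lipe, which encodes hormone-sensitive lipase, had −1.46 ± 0.37 (adjusted p = 0.0373). Pltp, which encodes phospholipid transfer protein, had −1.43 ± 0.21 (adjusted p = 0.00798). The remaining gene, Ppargc1b, was named after its values were seen, as its level was under 5 CPM, and had −1.42. The median of the 59 genes was −0.39, beside −0.01 for all genes. With the trends removed, the number called lower was 1, and it was 1 without OVX replicate 1, 0 without OVX replicate 2 and 8 without sham replicate 1.

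In MSC+RAW-LPS against MSC, 9 of the 63 pathway genes tested were called higher and 15 lower, beside 5.85% and 5.09% of all genes, and their median was −0.00. The counts of the lists that follow stand beside the same shares. In the list of fatty acid binding, activation and oxidation, 3 of 9 genes rose and none fell. Acsl1, which activates long-chain fatty acids, rose from 50.3 to 250 CPM (log2 fold change 2.31 ± 0.16, adjusted p = 2.21e-08), and Fabp7, another fatty acid-binding protein, rose from 4.76 to 31.8 CPM (2.74 ± 0.25). The other gene called there was Acsl4, which was named after its values were seen, at 1.03.

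In the list of droplet storage and lipolysis, 1 of 18 genes rose and 5 fell. Dgat2, an enzyme of the last step of triglyceride synthesis, rose from 9.09 to 41.5 CPM (2.19 ± 0.19, adjusted p = 3.54e-07). Plin4, another perilipin, fell from 19.9 to 4.46 CPM (log2 fold change −2.16 ± 0.21, adjusted p = 1.35e-06). Plin1, Cidec, Mgll and G0s2, each under 5 CPM on average and named after their values were seen, were the other genes that fell. The number that rose was close to the share of all genes, and Plin1 and Cidec are also on the adipocyte list.

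In the list of lipoprotein hydrolysis and uptake, 3 of 13 genes rose and 3 fell. Angptl4 rose from 28.7 to 84.7 CPM (1.56 ± 0.17, adjusted p = 6.29e-06), and Vldlr, the very-low-density lipoprotein receptor, from 6.38 to 16.8 CPM (1.39 ± 0.23). Lipa, which encodes lysosomal acid lipase, fell from 476 to 98.5 CPM (−2.28 ± 0.18, adjusted p = 1.98e-07), and Slc27a1, a fatty acid transporter, from 79.3 to 32.4 CPM (−1.29 ± 0.15). Olr1, an oxidized lipoprotein receptor that rose from 0.18 to 8.89 CPM, and Msr1, a scavenger receptor that fell from 1199 to 581 CPM, were named after their values were seen.

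In the list of efflux and sterol supply, 1 of 12 genes rose and 5 fell. Ch25h, the enzyme that makes 25-hydroxycholesterol, rose from 50.7 to 181 CPM (1.83 ± 0.21, adjusted p = 7.46e-06). Cyp27a1, which makes 27-hydroxycholesterol, fell from 14.1 to 1.38 CPM (−3.35 ± 0.29, adjusted p = 3.86e-07), and Nceh1, a cholesteryl ester hydrolase, from 113 to 14.8 CPM (−2.94 ± 0.17, adjusted p = 3.61e-09). Ch25h and Cyp27a1, which both encode enzymes that make oxysterols, thus moved in opposite directions. Apoc1, Arl4c and Npc1, named after their values were seen, also fell.

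Among regulators, 1 of 11 genes rose and 2 fell. Cebpb, a transcription factor of early fat cell differentiation and of inflammation, rose from 41.0 to 151 CPM (1.88 ± 0.18, adjusted p = 1.01e-06). Cebpa, which acts with PPARγ in fat cells and in myeloid cells, fell from 83.6 to 19.4 CPM (−2.11 ± 0.20, adjusted p = 8.53e-07), as did Ppargc1b, named after its values were seen, at −1.27. Nr1h2, which encodes the second LXR, LXRβ, and was also picked with its values known, was at 55.3 CPM in MSC and 60.8 CPM in MSC+RAW-LPS and was not called (0.13).

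In MSC+RAW against MSC, 6 of the 63 pathway genes were called higher and 2 lower, beside 6.8% and 9.59% of all genes. The number called higher was close to the share of all genes, and the number called lower was below it. Angptl4 rose from 28.7 to 62.7 CPM (1.15 ± 0.20), Bscl2, which encodes the droplet assembly protein seipin, from 41.9 to 121 CPM (1.56 ± 0.20), and Rxrb, a retinoid X receptor, from 17.8 to 38.0 CPM (1.12 ± 0.20). Msr1 fell from 1199 to 550 CPM (−1.10 ± 0.20) and Soat1, which esterifies cholesterol for storage, from 155 to 61.6 CPM (−1.30 ± 0.21). The adjusted p of these 5 was between 0.000195 and 0.00114. Fabp3, Apoc1 and Apoc4, named after their values were seen, were the others called higher, all under 6 CPM, and Apoc4 had at most 3 counts in each MSC library. With DESeq2 the number called higher went from 6 to 3, and with the trends removed the number called lower went from 2 to 1.

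In MSC+RAW-LPS against MSC+RAW, 8 of the 63 were called higher and 19 lower, with a median of −0.30. Over all genes these shares were 15.4% and 12%, so the number called higher was no more than the share of all genes gives. Acsl1, Fabp7, Dgat2 and Ch25h rose, with log2 fold changes of 2.88, 3.56, 1.41 and 2.12, and Vldlr rose from 4.12 to 16.8 CPM. Nrip1, a corepressor of nuclear receptors, rose from 15.0 to 35.1 CPM (1.19 ± 0.21, adjusted p = 0.000410). Lipa, Slc27a1, Plin4, Cyp27a1 and Cebpa fell, with log2 fold changes of −1.34, −1.66, −2.28, −2.98 and −2.67. In this comparison Arl4c, a small GTPase driven by LXR, fell from 276 to 71.2 CPM (−1.99 ± 0.19), and Rxra, the main retinoid X receptor partner, from 87.6 to 42.5 CPM (−1.08 ± 0.18). Cpt2, which brings fatty acids to oxidation, fell from 30.8 to 15.7 CPM (−1.01 ± 0.21), and Bscl2 fell from 121 to 41.7 CPM (−1.57 ± 0.20).

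**Figure D4:**
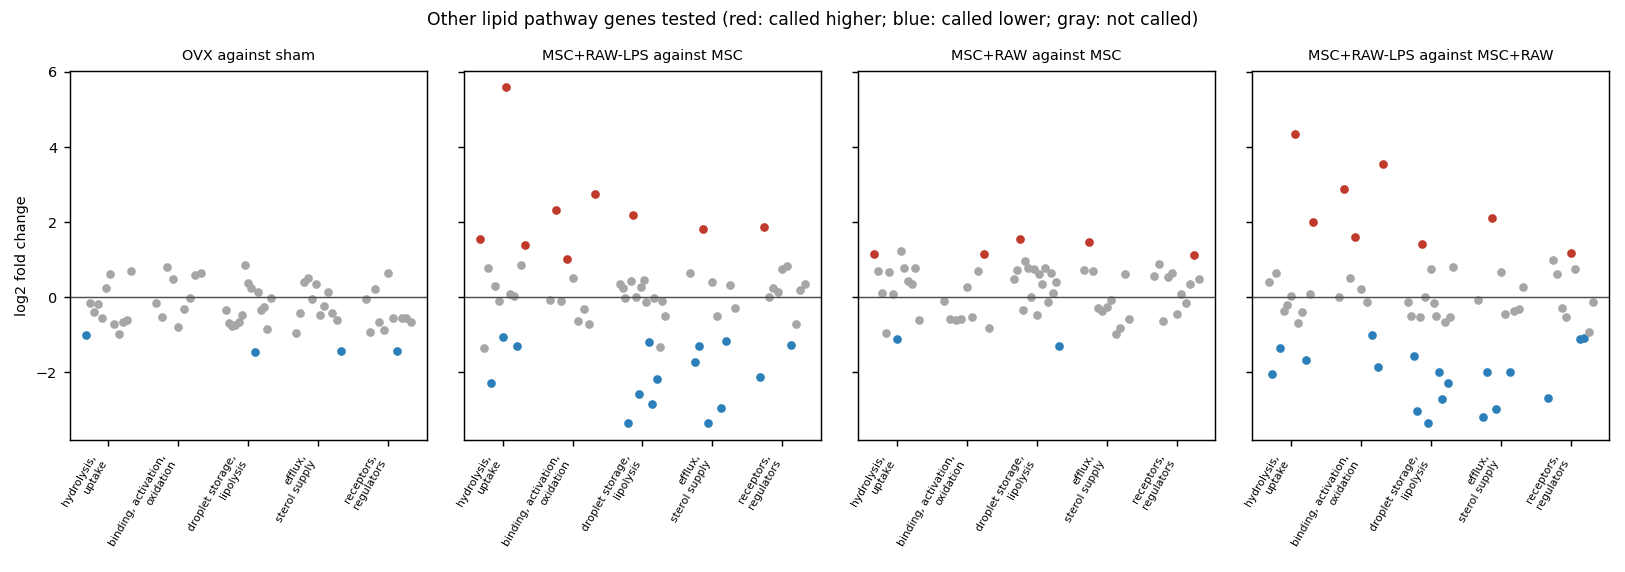
Log2 fold change (vertical axis) of the pathway genes that passed the filter, by list (horizontal axes), in the 4 comparisons, with 1 point per gene. Red points are called higher, blue points lower and gray points are not called, and genes with at most 3 counts in every library of a group are left out. The calls in OVX against sham are 4, all lower, whereas MSC+RAW-LPS has calls in both directions in all but 1 of the lists against MSC.

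The genes with the pattern most like that of 3 members were found by Pearson's r of log2 CPM, centered within each experiment, over the 10 samples and 9725 genes with at least 5 CPM on average in both experiments. Most like Lpl were Slc40a1, which encodes the iron exporter ferroportin (r = 0.993), Itga6 (r = 0.992) and Mfsd6 (r = 0.990). Most like Plin2 were Dtnbp1 (r = 0.988), Adam8 (r = 0.987) and Mbp (r = 0.986). Most like Abca1 were Rai14 (r = 0.992), Grem1 (r = 0.992) and Dmxl2 (r = 0.990). These are the highest values among all these genes over few samples that share depth and GC trends, so they describe likeness only.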

How the data were processed

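According to the methods and the submitters' processing notes, the authors selected poly(A) RNA, built directional libraries, trimmed the read pairs (Trim Galore 0.6.7), aligned them to GRCm38 (HISAT2 2.1.0) and assigned them to Ensembl genes (featureCounts 2.0.1). The deposited values are unnormalized, unfiltered counts, in 1 table per experiment, beside the exon length of each gene in base pairs. Total counts ran from 17012923 to 45367105, and between 60.0% and 71.4% of the counts from 1 to 20 in a library were even, so the counts are not single independent molecules. All 12 columns of counts were used. Both MSC+RAW columns carry the same name and the MSC+RAW-LPS columns carry numbers that are not those of the labels, so these columns were matched to their group only and numbered 1 and 2 in column order.

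Counts were fitted with edgeR 4.0.16 in R 4.3.3 (TMM, filterByExpr, quasi-likelihood F-test, two-sided) over all genes, in 1 fit per experiment, with Benjamini-Hochberg adjusted p. The study's methods name DESeq2, which was run as an alternative (version 1.42.0). Calls needed a 2-fold change or more with an adjusted p not above 0.05. Near-identical pairs were summed as 1 sample in the fits, and their mean CPM was used in means and SDs. CPM were divided by TMM-scaled library sizes. Fits kept the default prior count of edgeR. The log2 CPM from which the trends were drawn had a prior count of 2, while likeness of pattern used log2(CPM + 0.5). Fitted fold changes were checked on simulated counts of the same size. The trends on GC content and length were removed by lowess with a span of 0.3. Tables and figures were made with python 3.11.15, pandas 2.3.3 and matplotlib 3.10.9.

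The 10 members, the lists and the tests were chosen with earlier results of these data known. Named are all members and, for each pathway list and comparison, up to 2 called genes with the largest rise and 2 with the largest fall among genes of at least 5 CPM on average in the experiment. Other genes are marked as named after their values were seen. Replicate numbers of OVX and sham were checked as pairs by the correlation of their deviations from the group means over 13139 genes. Same numbers gave 0.52, −0.05 and 0.52 for replicates 1 to 3. Different numbers gave −0.63 (OVX 3 with sham 1) to 0.50 (OVX 3 with sham 2). As sham replicates 2 and 3 are near-identical, this cannot show whether the numbers mark pairs. The main fits used no pairing, and the number was used as a block only in an alternative.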

Additional observations from a re-analysis of the deposited data

How the results depend on the processing

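Nr1h3 was called lower in OVX than in sham under every alternative run, with log2 fold changes from −1.77 to −1.27 and adjusted p (edgeR or DESeq2) from 1.60e-10 to 0.0462. In MSC+RAW-LPS against MSC, Lpl (−2.60 to −2.45), Fabp4, Pparg, Nr1h3 and Abca1 (1.16 to 1.42) kept their calls under every alternative, as did Lpl, Fabp4, Fabp5, Pparg, Abca1 and Apoe against MSC+RAW. The cause of the shifts below was not tested, except that dropping the fold limit or a sample changes a count by construction.

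Without the fold limit, pathway genes called were 1 higher and 10 lower in OVX against sham. The same setting gave 8 members lower and 16 pathway genes higher in MSC+RAW-LPS against MSC. It gave 2 members higher and 3 lower, and 20 pathway genes higher and 9 lower, in MSC+RAW against MSC, and 2 members and 14 pathway genes higher in MSC+RAW-LPS against MSC+RAW. DESeq2 called 3 pathway genes higher in MSC+RAW against MSC. With the GC and length trends removed, 1 member and 1 pathway gene were lower in OVX, 0 members were higher and 1 pathway gene was lower in MSC+RAW against MSC, and 2 members were higher in MSC+RAW-LPS against MSC+RAW. Signs turned for Lpl (−0.35), Cd36 (−0.45), Fabp4 (−0.0088) and Apoe (0.28) in OVX, and for Cd36 (0.33) in MSC+RAW against MSC. Over all genes, this setting called 590 genes in OVX against sham in place of 1419, and 2162 in MSC+RAW against MSC in place of 3360, of which 52.1% in place of 41.5% were higher.

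With each library left out in turn, OVX against sham had 0 to 1 members higher, 1 to 2 members lower and 0 to 8 pathway genes lower, and MSC+RAW against MSC had 1 to 4 pathway genes lower. Over all genes, OVX calls numbered 678 without OVX replicate 1, 309 without OVX replicate 2 and 2390 without sham replicate 1. Fabp5 ran from −0.28 to 1.42, Pparg from −0.37 to 0.59, Fabp4 from 0.46 to 0.81 and Apoe from −0.63 to −0.005. The value of Fabp4 furthest from 0 and that of Apoe both came without sham replicate 1. With sham replicates 2 and 3 kept apart, Fabp5 was 0.18, and with the library number series as a block, chosen after seeing the data, it was 0.33. With the replicate number as a block and libraries kept apart, Fabp5 was 0.64 and Pparg 0.075, the calls of the 10 genes at the 2-fold limit in OVX were the same, and calls over all genes went from 1818 to 2117. The column names of the MSC cultures give numbers 1 and 2 in MSC, 1 for both MSC+RAW libraries and 2 and 3 in MSC+RAW-LPS, with at most 1 number shared between groups, so the replicate number was not used as a block there. With the library number series as a block and libraries kept apart, no member lost or gained a call in the MSC comparisons. Several changes under 2-fold changed their side of the p limit. Between MSC+RAW and MSC, with the near-identical pair kept apart, the adjusted p was 0.0374 for Fabp5, 0.0484 for Plin2 and 0.00836 for Cd36. With the near-identical sham libraries as separate samples, the adjusted p of Fabp4 in OVX was 0.0451 without and 0.00928 with the replicate block. That of Cd36 in OVX was 0.00837 with the same block. Between MSC+RAW and MSC, it was 0.0694 and 0.198 for Fabp4 and 0.0695 and 0.166 for Lpl without MSC replicate 1 or 2, and 0.0396 for Cd36 with DESeq2. In MSC+RAW-LPS, it was 0.0759 and 0.0675 for Abcg1 against MSC without MSC replicate 1 or 2, and 0.0656 with DESeq2 for Nr1h3 against MSC+RAW. Depth limits the members little, with at least 74 counts in every library.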
